A study of Mus musculus with 10 samples.

Results

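The genes described here are 9 acute phase genes: Hp, Hpx, Cp, Lcn2, C3, Cfb, Serpina3n, Saa3 and Orm1. They were taken by gene symbol from the 26335 rows of the expression table, and haptoglobin (Hp) led to the choice because it had the lowest value of stiripentol minus control among all 12306 genes tested. The difference of each of these genes between the groups is therefore given as a description, with no p-value. Of the 9, 4 (Hp, Cp, C3 and Lcn2) had a mean log2 CPM above 0 over the 10 libraries, the filter used here, where CPM is the read count scaled to the reads of the library. Hp lay nearest to the filter from above, with a mean of 0.28, and it was above only through its control libraries. Cfb lay nearest from below, with -1.10.

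RNA was sequenced from mSCLC-2405, a mouse small cell lung cancer cell line taken from a lung tumour. The tumour arose in a mouse model in which tumour suppressor genes, among them Rb1, are deleted conditionally after Adeno-Cre virus is given into the trachea, so both groups carry these deletions and both come from 1 line. The 5 control libraries are from cells kept with DMSO, the solvent, and the 5 stiripentol libraries from cells kept with stiripentol, an antiseizure medication. The dose, taken from the methods, was 250 μM. Both groups grew in RPMI medium with serum and were taken after 48 h.

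Acute phase proteins are plasma proteins whose synthesis changes in inflammation, mainly in the liver but also in epithelial and tumour cells. Interleukin-6 and related cytokines act through the receptor subunit gp130 and the transcription factor STAT3, interleukin-1 and tumour necrosis factor act through NF-kB, and C/EBP factors bind many of the promoters. Haptoglobin captures free haemoglobin, haemopexin (Hpx) captures free haem, ceruloplasmin (Cp) oxidises iron and carries copper, and lipocalin 2 (Lcn2) binds iron-loaded siderophores. C3 and factor B (Cfb) form the alternative complement pathway, Serpina3n inhibits serine proteases, Saa3 is a serum amyloid A protein made outside the liver, and Orm1 encodes orosomucoid, a carrier of drugs and lipids.

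The control libraries held 22375625 to 65299372 reads and the stiripentol libraries 55015760 to 60670901. In both groups the libraries split into 2 clusters. Cluster A holds controls 1 to 3 and stiripentol 3 to 5, and cluster B holds controls 4 and 5 and stiripentol 1 and 2. Across the tested genes, libraries of 1 group correlated at 0.983 to 0.997 within a cluster and at 0.920 to 0.939 between clusters. The sources used here do not say what the clusters are, and no label ties a library to a separate culture, so the p-values below measure the spread between these libraries, which may be technical. The clusters of the groups were joined by the values alone, on a weak relation: the difference between clusters in control and that in stiripentol libraries correlated at 0.21 across genes, which are not independent replicates. Controls 1 to 3 also stand apart in the table, where a gene with no read has the value -4.82, against -4.74 in the other 7 libraries. The study itself numbers the controls differently from the sample records used here: there, controls 1 and 2 have -4.74 and controls 3 to 5 have -4.82. By those numbers, libraries 1 and 2 of both groups make up cluster B and libraries 3 to 5 of both groups cluster A. Whether same-numbered libraries belong together is not stated.

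Of the 4 members tested, 3 passed the threshold of a limma adjusted p of 0.05 as lower with stiripentol (Hp, Cp and C3) and 0 as higher. Over all genes tested, 27.7% passed, 14.1% as lower and 13.6% as higher, and since this contrast chose the members, nothing is read from their share. The log2 change was -2 or lower for the same 3 members, against 1.93% of the genes tested. In rank from the lowest log2 change among the 12306 genes, Hp was 1, C3 62, Cp 233 and Lcn2 12172. The median log2 change of all tested genes was -0.056, and 0.047 after quantile normalization.

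**Figure D1:**
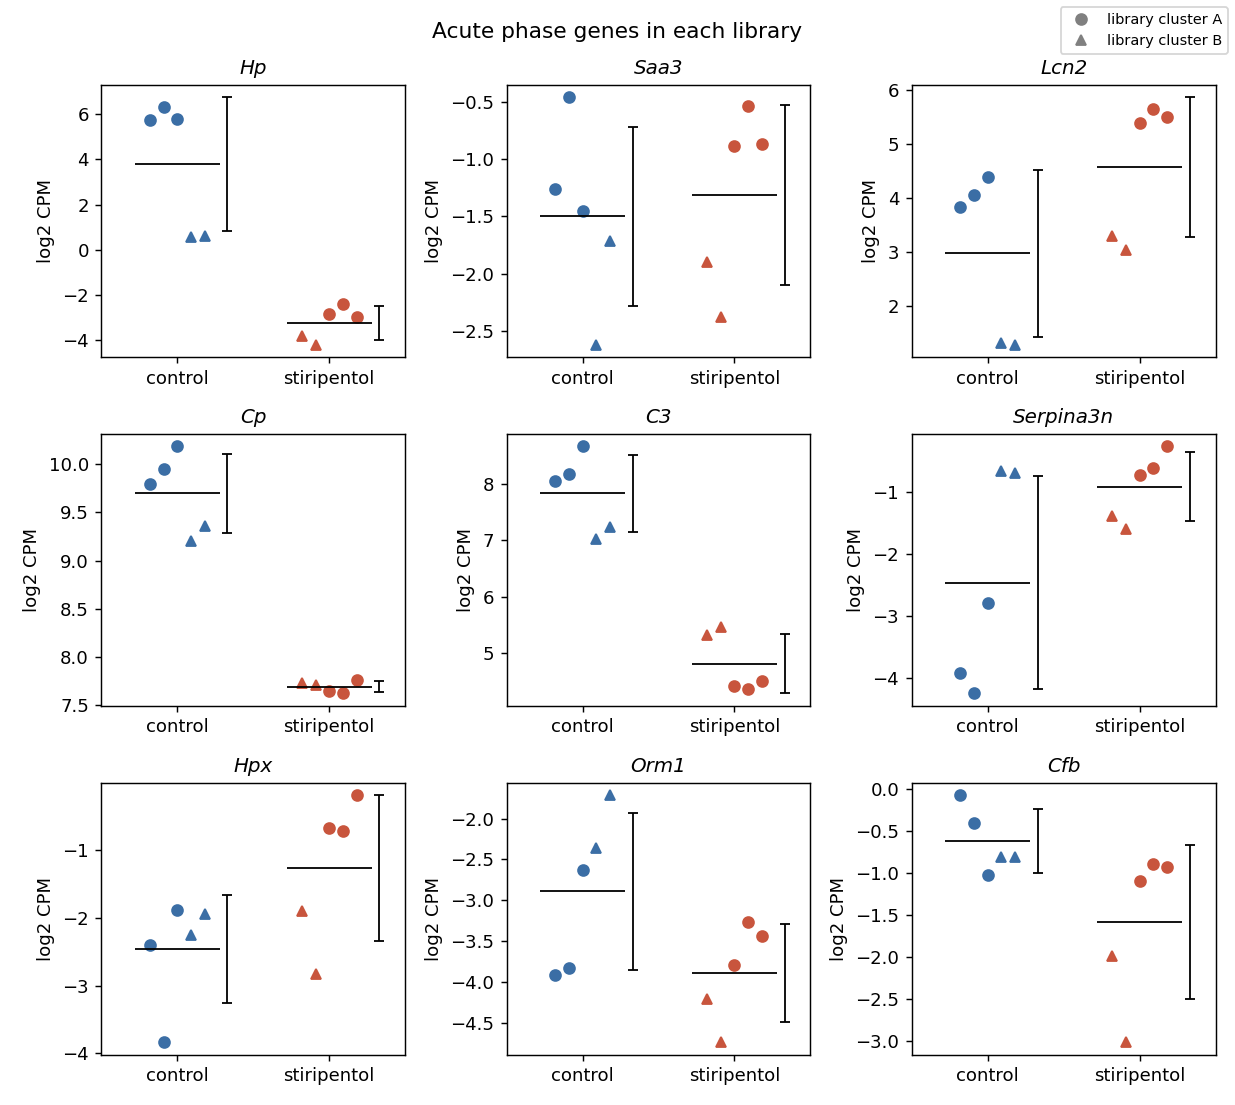
Level of the 9 acute phase genes in each library (log2 CPM on the vertical axis, with its own range for each gene). Circles are libraries of cluster A and triangles of cluster B, the horizontal line is the group mean and the bar beside it the SD (n = 5). The stiripentol libraries of Hp, Cp and C3 all lie below the control libraries, while the groups overlap for the other 6 genes.

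Hp, on the minus strand at chr8:109575128-109579172 (mm10, as for all positions here), had log2 CPM values of 5.77, 6.31 and 5.77 in controls 1 to 3 and of 0.57 and 0.60 in controls 4 and 5. In stiripentol 1 to 5 the values were -3.83, -4.19, -2.82, -2.41 and -2.96. The groups did not overlap, as for 14.3% of all genes above the filter in this direction, and controls 4 and 5 lay between the other controls and the stiripentol libraries. The control libraries of the 2 clusters did not overlap for 70.9% of all genes above the filter. In reads, this was 3552, 4593, 3482, 92 and 33 in controls 1 to 5 against 2, 1, 6, 9 and 5 in stiripentol 1 to 5. No stiripentol library held more than 9 reads of Hp, in either cluster.

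The mean log2 CPM of Hp was 3.80 ± 2.95 (SD, n = 5) with DMSO and -3.24 ± 0.74 (SD, n = 5) with the drug, which differ by -7.05 (standard error 1.19), 132-fold lower. This fold is damped by the prior of 0.837 to 2.38 reads that the table adds to each value. Pooled over libraries, 11752 control reads against 23 stiripentol reads gave a ratio of 545 relative to library size (95% exact binomial interval 363 to 861, counting error only). The interval leaves out the spread between control libraries: cluster A held 11627 against 20 reads, a ratio of 537 (347 to 879), and cluster B 125 against 3 reads, a ratio of 57.5 (19.2 to 283). In these bulk cultures, fewer cells that express a gene and less RNA per cell cannot be told apart.

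Hpx, on the minus strand at chr7:105591613-105600137, was below the filter. It had 10, 2, 15, 11 and 5 reads in controls 1 to 5 and 14, 6, 34, 34 and 46 reads in stiripentol 1 to 5, so that the 3 stiripentol libraries of cluster A were above all others and the rest overlapped. The log2 difference was 1.20 (standard error 0.60).

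Cp, on the plus strand at chr3:19957054-20009145, had the most even decrease. Its log2 CPM was 9.79, 9.95, 10.19, 9.20 and 9.36 in controls 1 to 5 and 7.73, 7.70, 7.64, 7.62 and 7.75 in stiripentol 1 to 5. The groups were far apart, and the stiripentol libraries spanned a narrow range in both clusters. The mean was 9.70 ± 0.41 (SD, n = 5) with DMSO and 7.69 ± 0.057 (SD, n = 5) with the drug, which differ by -2.01 (standard error 0.18), 4.02-fold lower. Hps3 overlaps Cp on the other strand over 13201 bases and the strandedness of the counting is not given in the sources used here. For Hps3 the log2 difference was 0.12 (standard error 0.15, limma adjusted p = 0.568) and its groups overlapped.

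Lcn2, on the minus strand at chr2:32384633-32388252, was the 1 member above the filter whose mean was higher with stiripentol. Its log2 CPM was 3.84, 4.06 and 4.40 in controls 1 to 3 and 1.33 and 1.29 in controls 4 and 5, against 3.30 and 3.04 in stiripentol 1 and 2 and 5.38, 5.65 and 5.50 in stiripentol 3 to 5. The groups overlapped, since stiripentol 1 and 2 lay between the 2 sets of controls. The mean was 2.99 ± 1.54 (SD, n = 5) with DMSO and 4.57 ± 1.29 (SD, n = 5) with the drug, which differ by 1.59 (standard error 0.78). The difference did not pass the threshold. Cluster A was above cluster B in both groups, by 6.93-fold in control and 5.08-fold in stiripentol libraries.

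C3, the central complement component, lies on the minus strand at chr17:57203970-57228136. In controls 1 to 5 its log2 CPM was 8.05, 8.17, 8.67, 7.03 and 7.23, and in stiripentol 1 to 5 it was 5.33, 5.47, 4.43, 4.37 and 4.51. Every stiripentol library was below every control, and the clusters changed order: cluster A was the higher in control and the lower in stiripentol libraries. The mean was 7.83 ± 0.68 (SD, n = 5) with DMSO and 4.82 ± 0.53 (SD, n = 5) with the drug, which differ by -3.01 (standard error 0.34), 8.05-fold lower.

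Cfb, on the minus strand at chr17:34856374-34862518, had 60, 42, 29, 34 and 12 reads in controls 1 to 5 and 13, 5, 25, 30 and 27 in stiripentol 1 to 5. It was below the filter, its log2 difference was -0.96 (standard error 0.45) and the groups overlapped, with the lowest values in stiripentol 1 and 2. The annotation places a further gene, Gm20547, over 6107 bases of Cfb on the same strand. That gene had 0 control and 2 stiripentol reads.

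RefSeq promoter windows were on hand for 6 of the 9 members (build GRCm38.p6; not for Hp, Orm1 and Cfb). The 250 bases before the start are shown for C3 and Cp because both were lower in every stiripentol library and these windows lie before the annotated start of the gene. Capitals mark matches, on either strand, to the letters TTNNGNAA (C/EBP) and TTCNNNGAA (STAT), and to GGG and CC separated by 5 bases of any kind (NF-kB). Each is written 5′ to 3′ on the strand of the gene, from chr17:57228137-57228386 (minus strand) for C3 and chr3:19956804-19957053 (plus strand) for Cp.
C3: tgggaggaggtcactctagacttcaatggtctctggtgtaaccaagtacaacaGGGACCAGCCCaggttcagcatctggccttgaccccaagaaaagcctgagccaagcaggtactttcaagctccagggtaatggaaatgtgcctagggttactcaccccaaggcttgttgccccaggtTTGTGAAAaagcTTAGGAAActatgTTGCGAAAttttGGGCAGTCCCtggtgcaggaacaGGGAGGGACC
Cp: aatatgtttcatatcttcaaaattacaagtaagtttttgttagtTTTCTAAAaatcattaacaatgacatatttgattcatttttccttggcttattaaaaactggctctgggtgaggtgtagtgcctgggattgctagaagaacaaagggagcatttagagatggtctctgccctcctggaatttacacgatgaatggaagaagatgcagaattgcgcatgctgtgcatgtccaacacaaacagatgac
The C3 window held 3 C/EBP and 4 NF-kB matches, of which 2 NF-kB matches overlap each other, and the Cp window held 1 C/EBP match. A second RefSeq window of Cp, from a later start (chr3:19956999-19957248), held 1 C/EBP and 1 NF-kB match and is not printed. Windows of members not called lower, also not printed, held such matches too: Saa3 4 C/EBP, Serpina3n 2 C/EBP and 4 NF-kB, Hpx 2 C/EBP and Lcn2 1 C/EBP and 1 NF-kB. The matches are therefore not particular to the genes that fell. None of these windows held a STAT match. Of 32851 promoter windows of the same length, 36.8% held the C/EBP letters, 45.8% the NF-kB letters and 7.02% the STAT letters. A match is a run of letters and not a site shown to be bound.

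Serpina3n, on the plus strand at chr12:104406729-104414329, had 2, 1, 7, 38 and 13 reads in controls 1 to 5 and 21, 17, 33, 37 and 44 in stiripentol 1 to 5. Controls 1 to 3 were far below all other libraries, while controls 4 and 5 were in the range of stiripentol 3 to 5 once depth is taken into account (log2 CPM of -0.66 and -0.69, against -0.72, -0.61 and -0.26). The log2 difference was 1.55 (standard error 0.81), with overlap. Saa3, on the minus strand at chr7:46711998-46715700, had 25, 40, 21, 8 and 6 reads in controls and 14, 9, 29, 39 and 28 in stiripentol libraries, a log2 difference of 0.18 (standard error 0.49), and cluster A was above cluster B in both groups. Orm1, on the plus strand at chr4:63344560-63348163, had 2, 2, 8, 10 and 6 reads in controls and 1, 0, 2, 4 and 3 in stiripentol libraries, a log2 difference of -0.999 (standard error 0.51), with overlap. The 5 members below the filter all had overlapping groups, where 3.16% of genes with reads below the filter had every stiripentol library below the controls and 2.28% above. Saa3, Orm1 and Serpina3n belong to families of similar genes between which the counting could split reads, so their values are uncertain beyond the counting error. Whether reads were split was not tested.

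The difference within each cluster is shown in the plot of the stiripentol difference by cluster. For Hp it was -8.68 (standard error 0.24) in cluster A and -4.59 (standard error 0.18) in cluster B, since the controls of cluster A were 41.3-fold above those of cluster B. C3 gave -3.86 (standard error 0.19) and -1.74 (standard error 0.12), and Cp -2.31 (standard error 0.12) and -1.56 (standard error 0.079). All 3 genes were lower without overlap in both clusters. This had to be so, since every stiripentol library lay below every control, and it is no check of them.

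**Figure D2:**
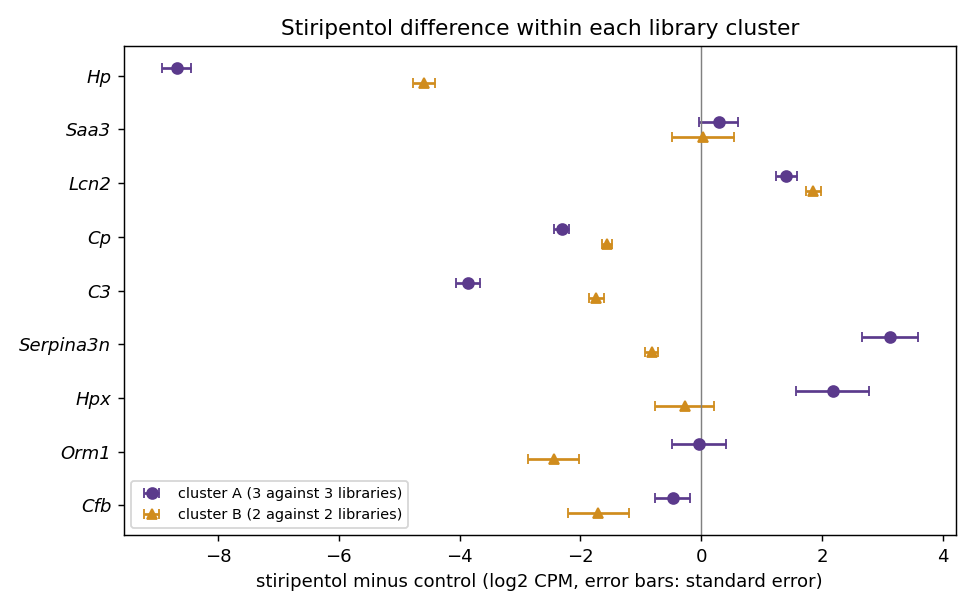
Stiripentol minus control (log2 CPM, horizontal axis) for each acute phase gene in cluster A (circles, 3 against 3 libraries) and cluster B (triangles, 2 against 2 libraries), with bars for the standard error. Hp, C3 and Cp lie left of 0 in both clusters and Lcn2 right of 0 in both, whereas Serpina3n lies right of 0 in cluster A (3.12) and left in cluster B (-0.82).

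The term for a different stiripentol effect in the 2 clusters was not used in choosing the members. It was -2.12 for C3 (standard error 0.22, limma adjusted p = 1.09e-05) and -0.74 for Cp (standard error 0.15, adjusted p = 0.00139), and it did not pass the threshold for Lcn2 (-0.45, standard error 0.22, adjusted p = 0.0965). Over all tested genes 63.3% passed, so a difference between the clusters was not particular to the acute phase genes. For Hp the term was -4.09 and is given with no test, since Hp was above the filter only through its controls and had 1 to 9 reads in each stiripentol library, so that the term mostly repeats the gap between the control clusters. The clusters were defined from the same libraries, and the residual spread in this fit is that within a cluster.

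Lcn2 was higher with stiripentol by 1.41 (standard error 0.18) in cluster A and by 1.86 (standard error 0.13) in cluster B, without overlap in either. Of the 12306 genes tested, limma called 4637 higher in cluster A alone and 3158 higher in cluster B alone. The share of all genes higher without overlap in both clusters was not counted, so nothing is read from the Lcn2 separation. Serpina3n was higher by 3.12 (standard error 0.46) in cluster A, whereas it was -0.82 (standard error 0.11) in cluster B, also without overlap. Such opposite moves without overlap occurred in 19.8% of genes above the filter. The other 4 members had differences in clusters A and B of 2.18 and -0.27 (Hpx), 0.29 and 0.026 (Saa3), -0.038 and -2.44 (Orm1) and -0.47 and -1.70 (Cfb).

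These within-cluster values depend on how the clusters are joined. With the controls of A set against the stiripentol libraries of B and the reverse, chosen after seeing the data, Hp gave -9.96 and -3.32, Cp -2.26 and -1.61 and C3 -2.90 and -2.70, all without overlap. For Lcn2 the same exchange gave -0.93 and 4.20, so its direction in cluster A turned. The higher Lcn2 in both clusters therefore rests on the joining used, which matches the study's own numbers of the libraries. For Hp, Cp and C3 the exchange could not turn the direction, since every stiripentol library lay below every control, so it is no check of them.

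Among the other genes of the acute phase response, taken from 6 lists, 75 of 113 in the table were tested and 28 passed (37.3%, against 27.7% of all genes), 18 as lower and 10 as higher with stiripentol. The median log2 change of the 75 was -0.22, against -0.056 over all genes. In the list of other positive acute phase genes, 1 of 7 tested genes fell and 0 rose (14.3%, against 27.7% of all genes). It was Cd14, the lipopolysaccharide co-receptor, at -0.95 (standard error 0.18, limma adjusted p = 0.00469). Lbp, which carries lipopolysaccharide to Cd14, had -0.21 (adjusted p = 0.758) and the metal-binding Mt1 0.68 (adjusted p = 0.0618). Among genes whose products fall in an acute phase response, only Rbp4, the retinol carrier, was tested, and Trf (transferrin) and Ahsg were below the filter. Rbp4 rose by 0.96 (standard error 0.28, adjusted p = 0.0294), with 1.64 in cluster A and -0.044 in cluster B. The call of Rbp4 was lost without any 1 of controls 1 to 3 or stiripentol 3 to 5, up to an adjusted p of 0.0699 without control 2.

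Of 14 tested cytokines and receptors that drive the response, 4 fell and 0 rose (28.6% called, near the 27.7% of all genes), with a median log2 change of -0.56. The interleukin-6 receptor Il6ra fell by 1.45 (standard error 0.32, limma adjusted p = 0.00857). Its log2 CPM was 4.10 to 4.61 in control and 1.90 to 3.47 in stiripentol libraries, without overlap. Lifr, the receptor of leukaemia inhibitory factor, fell by 1.28 (standard error 0.19, adjusted p = 0.00112), and Osmr, the receptor of oncostatin M, by 1.08 (standard error 0.32, adjusted p = 0.0314). Tnfrsf1b, named after its value was seen, fell by 0.56. Il6st, which encodes the shared subunit gp130, had -0.087 (adjusted p = 0.525) and Tnfrsf1a 0.33 (adjusted p = 0.189). The call of Osmr was lost without any 1 of controls 1 to 3 or stiripentol 1 and 2, with an adjusted p of up to 0.0762 without control 3.

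Among 31 signal transducers and transcription factors, 5 fell and 6 rose (35.5%, against 27.7% of all genes), with a median of -0.14. Cebpa, a C/EBP factor of differentiated cells, fell by 1.71 (standard error 0.38, limma adjusted p = 0.00847), from 2.99 to 3.36 log2 CPM in control to 0.21 to 2.14 in stiripentol libraries, without overlap. Junb, a subunit of AP-1, fell by 1.21 (adjusted p = 0.00155) and Tnfaip3, an inhibitor of NF-kB signalling, by 0.75 (adjusted p = 0.0152). Stat3, the main transducer of interleukin-6, rose by 0.49 (standard error 0.11, adjusted p = 0.0103). Irf1, an interferon regulatory factor, rose by 0.74 (adjusted p = 0.0314), Cebpg by 0.55 (adjusted p = 0.0258) and the kinase Jak1 by 0.47 (adjusted p = 0.0318). The calls of Irf1 and Jak1 were lost without any 1 of controls 1 to 3 or stiripentol 1 and 2, and that of Cebpg without control 1, 3 or 4 or stiripentol 1 or 2. Without stiripentol 2 the adjusted p was 0.0759 for Irf1, 0.0594 for Cebpg and 0.0763 for Jak1, and Cebpg had 0.0509 in cluster A alone.

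**Figure D3:**
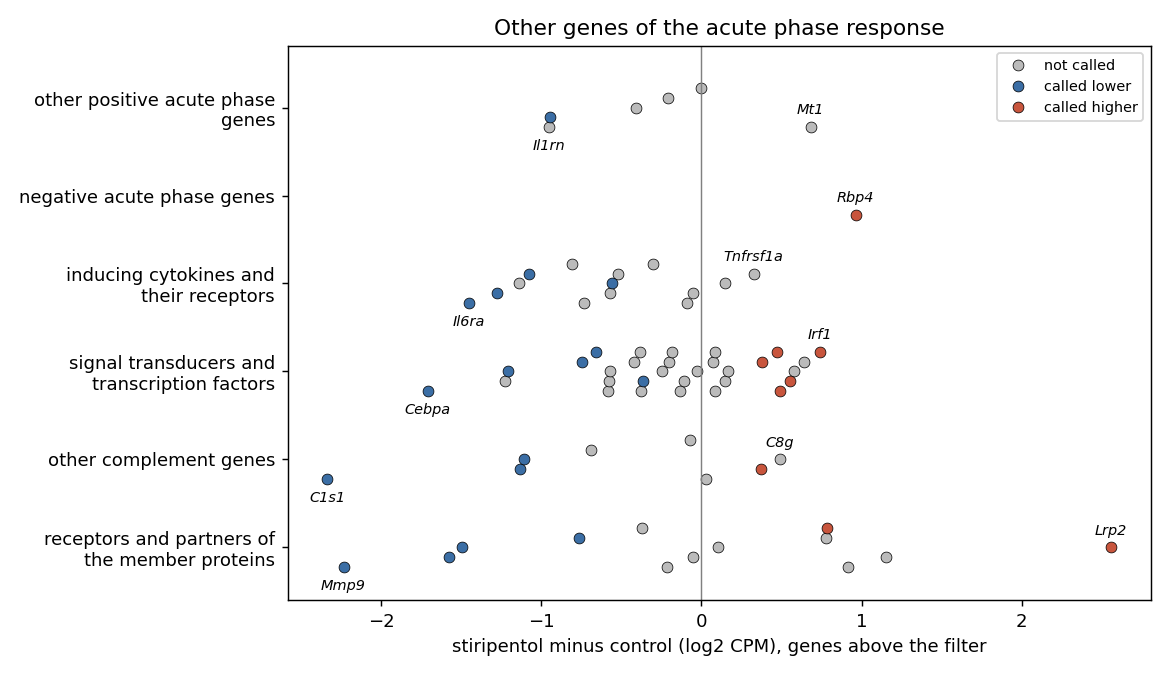
Stiripentol minus control (log2 CPM, horizontal axis) for 72 of the 75 tested genes of the 6 lists, 1 row per list. Blue points passed the threshold as lower, red as higher and grey did not pass, and the lowest and highest gene plotted of each list is named. The genes of the cytokine and complement lists that passed lie mostly to the left, while the signal transducers that passed lie on both sides.

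Of 9 other complement genes tested, 4 fell and 1 rose (55.6%, against 27.7% of all genes), with a median log2 change of -0.69. C1s1, the protease that starts the classical pathway, fell by 2.34 (standard error 0.24, limma adjusted p = 0.000181), to a like extent in cluster A (-2.27) and cluster B (-2.44). Its log2 CPM was 4.60 to 5.57 in control and 2.57 to 3.26 in stiripentol libraries. Masp1, a protease of the lectin pathway, fell by 1.13 (standard error 0.13, adjusted p = 0.000329). C3ar1, named after its value was seen, fell by 1.11. Cr1l, a regulator on the cell surface, rose by 0.37 (adjusted p = 0.0289). Clu had -0.072 (adjusted p = 0.856) and C1ra -0.69 (adjusted p = 0.105). The call of Cr1l was lost without control 1 or 5 or any 1 of stiripentol 3 to 5, up to an adjusted p of 0.0660 without stiripentol 4.

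Of 13 receptors and partners of the member proteins, 4 fell and 2 rose (46.2%, against 27.7% of all genes). Lrp2, the endocytic receptor megalin, which takes up Lcn2, rose by 2.56 (standard error 0.60, limma adjusted p = 0.0117), from 0.17 to 3.40 log2 CPM in control to 3.61 to 5.13 in stiripentol libraries, and Fth1, the ferritin heavy chain, rose by 0.79 (standard error 0.22, adjusted p = 0.0260). Mmp9, the protease that Lcn2 binds, fell by 2.23 (standard error 0.70, adjusted p = 0.0372), Slc40a1, the iron exporter ferroportin, by 1.57 (standard error 0.50, adjusted p = 0.0401) and Tlr4 by 1.49 (standard error 0.42, adjusted p = 0.0243). In clusters A and B the differences were 3.83 and 0.65 for Lrp2, 1.20 and 0.16 for Fth1, -3.35 and -0.56 for Mmp9, -0.26 and -3.54 for Slc40a1 and -0.55 and -2.92 for Tlr4. In cluster B alone the calls of Fth1 (limma adjusted p = 0.163) and Mmp9 (adjusted p = 0.0503) were lost. Tlr2, named after its value was seen, fell by 0.76. Ftl1, the ferritin light chain, had 1.15 (adjusted p = 0.103) and Lrp1, a receptor of haem-bound haemopexin, -0.37 (adjusted p = 0.165). The call of Mmp9 was lost without any 1 library other than controls 4 and 5, up to an adjusted p of 0.0876 without control 3. Slc40a1 lost its call without any 1 of controls 2 to 5 or stiripentol 1 and 2 (up to 0.0940 without stiripentol 2), Fth1 without any 1 of controls 1 to 3 or stiripentol 4 (up to 0.0625 without control 2) and Tlr4 without stiripentol 2 (0.0537).

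The 5 genes whose profile was nearest to that of Hp, by the root mean square difference of centred log2 CPM over the 10 libraries, were C1qtnf7 (1.23), Col3a1 (1.33), Medag (1.58), Tm4sf1 (1.64) and Egr3 (1.68), where the median over all tested genes was 3.99. The measure takes in the fall that chose Hp. Each of the 5 was highest in controls 1 to 3, and 4 of them had lower values in every stiripentol library than in any control, with overlap for Egr3. With profiles divided by their SD, 1 of the 5 (C1qtnf7) was again among the nearest 5.

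**Figure D4:**
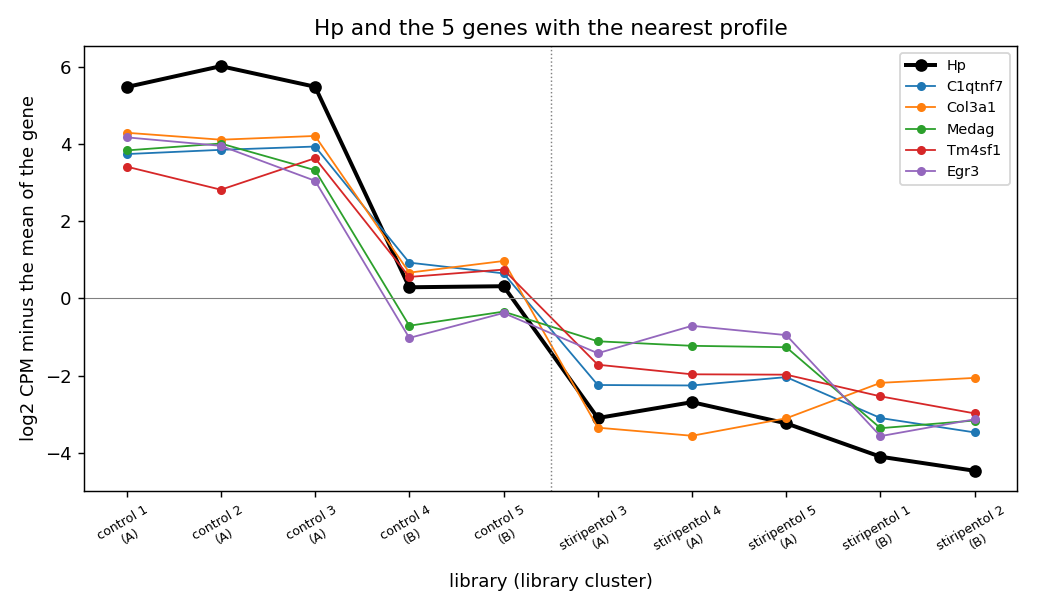
Centred profile (log2 CPM minus the mean of the gene, vertical axis) of Hp in black and of its 5 nearest genes in colour across the 10 libraries, controls left of the dotted line. All 6 profiles are highest in controls 1 to 3, and Hp spans the widest range.

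Markers of cell types were read in the same libraries. Of the neuroendocrine markers of small cell lung cancer, 9 of 12 were in the table, and Insm1, Chgb, Syp, Dll3 and Nkx2-1 were under 1 CPM in every library. The summed CPM of these 9 was 94.2 to 122 in control and 127 to 157 in stiripentol libraries, where Ncam1 alone had 92.8 to 117 and 126 to 154. Of the 2 tested, Ncam1 passed as higher with stiripentol (limma adjusted p = 0.00911) and Uchl1 did not pass (adjusted p = 0.779). All 8 markers of the non-neuroendocrine form were in the table, with a sum of 2984 to 4051 in control and 3108 to 4982 in stiripentol libraries, Vim and Cd44 included. Vim alone had 2089 to 3373 CPM in control and 2327 to 4548 in stiripentol libraries. Of the 7 tested, 2 passed as lower with stiripentol (Yap1 and Rest) and 0 as higher. The libraries thus held under 1 CPM each of Insm1, Chgb, Syp, Dll3 and Nkx2-1, markers of the labelled tumour type, but not of Ncam1. Of the hepatocyte markers, 5 of 10 were in the table, Alb, Tat, Cps1 and Ahsg were under 1 CPM in every library, and the sum was 2.97 to 9.34 in control and 0.841 to 2.89 in stiripentol libraries. Apob alone had 2.89 to 9.25 CPM in control and 0.824 to 2.80 in stiripentol libraries. It was the 1 gene of this list tested and passed as lower (limma adjusted p = 0.0247).

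The summed level of the fibroblast markers had the order of the Hp groups. All 9 were in the table, 4 of the 6 tested fell (Col1a2, Col3a1, Pdgfra and Pdgfrb) and 0 rose, and the sum of the 9 in CPM was 635 to 696 in controls 1 to 3, 404 to 523 in controls 4 and 5 and 152 to 185 in stiripentol libraries. Col3a1, also among the 5 genes nearest to Hp, alone had 290 to 328 CPM in controls 1 to 3. It had 26.5 and 32.6 CPM in controls 4 and 5 and 1.37 to 3.95 in stiripentol libraries. The share of all genes with this order was not counted. Col1a1 did not follow this order, with 68.8, 64.7 and 25.4 CPM in controls 1 to 3, 223 and 322 in controls 4 and 5, 47.6 and 39.4 in stiripentol 1 and 2 and 100.1, 77.4 and 87.0 in stiripentol 3 to 5. Its log2 difference was -0.53 (limma adjusted p = 0.529), with 0.86 in cluster A and -2.63 in cluster B. Lum, Thy1 and Fap were under 1 CPM in every library. Of the macrophage markers, 5 of 8 were in the table with a sum of 6.50 to 19.0 in control and 59.0 to 103 in stiripentol libraries. Cd68 alone had 4.12 to 17.9 CPM in control and 55.1 to 103 in stiripentol libraries. Of the 2 tested, Cd68 passed as higher (limma adjusted p = 0.000819) and Lyz2 did not pass (adjusted p = 0.648). Ptprc, Csf1r and Itgam were under 1 CPM in every library. The alveolar type 2 list summed to 138 to 252 in control and 254 to 338 in stiripentol libraries, with Sftpb, Sftpd and Lamp3 under 1 CPM. Abca3 alone had 124 to 229 CPM in control and 228 to 307 in stiripentol libraries. The 2 tested, Abca3 (limma adjusted p = 0.0382) and Napsa (adjusted p = 0.0204), passed as higher. The part of any such cells in the acute phase genes was not tested. The neutrophil markers summed to at most 0.0894 CPM in any library, the endothelial markers were all under 1 CPM in the 5 genes listed, and the 2 airway secretory markers in the table summed to 0.689 to 8.58 in control and 3.60 to 5.73 in stiripentol libraries.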

How the data were processed

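RNA sequencing of 5 control and 5 stiripentol libraries of mSCLC-2405 cells was analysed from the deposited table. The values the authors deposited are log2 CPM for each gene in each library, normalized with GENAVi per the study's methods. The build is mm10 per the submitters' processing notes, and the aligner, counter and strandedness are not given in the sources used here. The methods name a Lexogen QuantSeq 3′ kit and the sample records TruSeq total RNA, so levels were not compared between genes, although sums of markers weigh each gene by its reads. The table also holds the authors' means, p-values, q-values and fold changes, which were not used.

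The log2 CPM were turned back into whole reads (100% of values within 0.05 of a whole number). Reads are not independent molecules, and intervals cover counting error only. Genes with a mean log2 CPM above 0 were tested with limma 3.58.1 (trend; R 4.3.3), with Benjamini-Hochberg adjustment over all 12306 and a call at 0.05. A further limma fit held the interaction of group and library cluster. Clusters came from average linkage of the correlation between libraries within a group, joined across groups by the correlation of deviations from the group mean. Below the filter, standard errors came from the spread of the 2 groups. The limma code was tested on simulated data. Other work used Python 3.11.15, numpy 2.4.6, pandas 2.3.3 and scipy 1.17.1. Positions are from GENCODE M21 (GRCm38) and promoter windows from RefSeq, with 50 bases after the start left out.

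The members, the gene lists, the tests and the alternatives were chosen with earlier results of these data known. Genes named are the 9 members, up to 3 lowest and 3 highest called genes and the 3 of highest mean in each list, the 5 genes nearest to Hp, and the 2 leading markers of a list. As alternatives, each library was left out in turn, and the fit was repeated with a replicate block, a cluster term, each cluster alone, cluster means, 2 other scalings, pseudocounts of 0.1 and 1 CPM, other filters and limma voom on the recovered reads. Some genes, among them 3 of the pathway lists, are not reported here by name, although the counts and medians of their lists include them.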

Additional observations from a re-analysis of the deposited data

Results flagged for a closer look

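In the tests for a library far from its group, 89 groups of 5 values were examined and 2 had such a library, where chance gives about 4.5. The Hpx level of control 2, at -3.84 log2 CPM, was far below the nearest control at -2.41. It stands for 2 reads, so 1 further read would move it. The total of control 5 was 22375625 reads, far below the nearest control at 57991647, and the levels of control 5 therefore carry a larger counting error.

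The effect of stiripentol differed between the library clusters for 2 of the 3 acute phase genes above the filter in both groups, where 63.3% of all genes tested did so. Cluster A minus cluster B was -0.74 for Cp (limma interaction, adjusted p = 0.00139) and -2.12 for C3 (adjusted p = 1.09e-05). With the clusters joined the other way, the 2 differences were -2.26 and -1.61 for Cp and -2.90 and -2.70 for C3, so that the clusters of C3 then had similar differences. For Serpina3n the effect in cluster A was 3.94 above that in cluster B, since the stiripentol libraries of cluster A lay above the controls of that cluster and those of cluster B below theirs. Serpina3n was below the filter, and its difference between the clusters was not tested.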

How the results depend on the processing

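In the fits without 1 library, the log2 changes were -7.86 to -6.42 (Hp), -3.21 to -2.80 (C3), -2.13 to -1.89 (Cp), 1.17 to 1.97 (Lcn2), -0.09 to 0.45 (Saa3), 1.10 to 2.00 (Serpina3n), 0.85 to 1.59 (Hpx), -1.26 to -0.70 (Orm1) and -1.13 to -0.60 (Cfb), and 3 members were called lower in each. This contrast chose the members, so their calls here and in the alternatives below are a description and no test of them. Over all genes, the fits without 1 library called 1171 to 1802 lower and 1218 to 1706 higher, against 1740 and 1674 with all libraries. By list, they called 1 lower and 0 to 1 higher of the positive acute phase genes, 0 to 1 higher of the negative, 2 to 4 lower of the cytokines and receptors, 3 to 6 lower and 2 to 7 higher of the signal transducers and transcription factors, 2 to 3 lower and 0 to 1 higher of the complement genes, and 0 to 3 lower and 1 to 3 higher of the receptors and partners. The partners called lower fell to 0 without stiripentol 2, the signal transducers called higher to 2 without control 3, stiripentol 1 or stiripentol 2 and called lower to 3 without control 2 or stiripentol 2, the cytokines called lower to 2 without control 1, control 3, stiripentol 1 or stiripentol 2, and the complement genes called lower to 2 without control 1, control 2 or stiripentol 4. Of the 20 named pathway genes that were called, 10 were called in every such fit.

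By the sample records, the replicate numbers of the 2 groups gave no pairing (correlations of -0.24 to 0.06 between same-numbered libraries, 0 of 5 over 0.1, and 0 of 5 libraries nearest to their own number). The study itself numbers the controls differently. Neither this check nor the replicate block used its numbers, so a pairing by them was not tested. With the replicate block, 1062 genes were lower and 1020 higher, the members called lower were 3, and the lists gave 2 complement genes lower and 0 higher, 2 positive acute phase genes lower, and 3 signal transducers lower and 3 higher.

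In cluster A alone the log2 change was -3.86 for C3, -2.31 for Cp, 2.18 for Hpx, -0.038 for Orm1 and 3.12 for Serpina3n, and in cluster B alone -4.59 for Hp, -1.74 for C3, -1.56 for Cp, -1.70 for Cfb, -0.27 for Hpx, -2.44 for Orm1 and -0.82 for Serpina3n. Joined the other way, controls of A to stiripentol of B gave -9.96 for Hp, -1.08 for Saa3, -0.93 for Lcn2 and -2.01 for Cfb, and controls of B to stiripentol of A gave -3.32 for Hp, 1.40 for Saa3, 4.20 for Lcn2, -1.61 for Cp, 0.15 for Serpina3n and -0.16 for Cfb. With a pseudocount of 1 CPM Hp gave -3.99 and Orm1 -0.11, and with upper-quartile scaling and a common prior of 1 CPM Hp gave -3.96 and Orm1 -0.11, since a larger pseudocount draws low values together.

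Cluster A alone called 3322 genes lower and 4637 higher, with 1 member higher (Lcn2), 2 positive acute phase genes lower and 2 higher, 7 cytokines lower, 10 signal transducers lower and 12 higher, 3 complement genes higher and 5 partners higher. Cluster B alone called 5726 genes lower and 3158 higher, with 1 member higher, 4 positive acute phase genes lower and 1 higher, 0 negative ones higher, 11 cytokines lower and 1 higher, 13 signal transducers lower, 7 complement genes lower and 1 partner higher. With the cluster as a term, 3336 genes were lower and 2908 higher, with 1 member higher, 2 positive acute phase genes lower and 1 higher, 7 cytokines lower and 1 higher and 10 signal transducers lower. With 2 cluster means per group, 0 genes, members and listed genes passed in limma, and 1116 genes had an unadjusted p under 0.05. With no filter, 2 cytokines were lower and 1 higher, 0 negative genes were higher, 2 positive ones were lower, 3 signal transducers were lower, 3 complement genes were higher, and 2 partners were lower and 1 higher. Quantile normalization and upper-quartile scaling each called 1 positive acute phase gene higher.

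Of the named pathway genes, 4 changed sign in 1 cluster alone: Lbp was 0.33 (adjusted p = 0.0155) and Clu 0.20 in cluster A, and Rbp4 was -0.044 and Ftl1 -0.0069 in cluster B. The count of genes with an interaction was 7377 after quantile normalization and 7324 above a mean log2 CPM of 1, against 7792. The causes of these shifts were not tested. Depth limits the 5 members under the filter, which had at most 60 reads in a library.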

Other observations

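Of the 38 genes of the 6 lists that were in the table but below the filter, 2 lay below all controls in every stiripentol library and 2 above, where 3.16% and 2.28% of all genes with reads below the filter did so. The choice to name them followed their values. Il6, which encodes interleukin-6, had 6, 7, 9, 3 and 1 reads in controls 1 to 5 and 14, 10, 30, 30 and 38 reads in stiripentol 1 to 5, a log2 difference of 1.79 (standard error 0.41), while its receptor Il6ra and the acute phase genes Hp, C3 and Cp were lower. Serping1, the inhibitor of the first complement component, had 50 control and 8 stiripentol reads, C1s2 228 and 62, and Vtn 1 and 8.

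Hmox1, the haem oxygenase that breaks down haem taken up with haptoglobin and haemopexin, did not pass the threshold (limma adjusted p = 0.326) and was named after its values were seen. Its log2 CPM was 5.36, 5.58 and 6.62 in controls 1 to 3, 8.94 and 8.77 in controls 4 and 5, 7.47 and 7.63 in stiripentol 1 and 2 and 8.23, 8.31 and 8.20 in stiripentol 3 to 5. Stiripentol libraries were above the controls by 2.40 in cluster A and below them in cluster B, where the difference was -1.31, so that Hmox1 was lowest in the control libraries in which Hp was highest. In the stiripentol libraries, where Hp was lowest, Hmox1 lay between the 2 sets of controls. Of all genes above the filter, 70.9% had control clusters that did not overlap, and 19.8% moved in opposite directions in the clusters without overlap.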
